A study of Homo sapiens with 2 samples.

Results

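The SWI/SNF complexes are large ATP-dependent machines that slide or evict nucleosomes and so open chromatin at promoters and enhancers. SMARCA4 (BRG1) and SMARCA2 (BRM) are the mutually exclusive ATPases, SMARCC1 (BAF155), SMARCC2 (BAF170) and SMARCB1 (SNF5) form the shared core, ARID1A and ARID1B define the BAF form, and ARID2, PBRM1 and BRD7 define the PBAF form. ARID1A and ARID2 are recurrently mutated in hepatocellular carcinoma. Here the transcripts of these 10 genes were followed in RNA precipitated with CRTC2, which is known as a coactivator for CREB. Peaks were assigned to a gene by the exon or intron named in their annotation, and otherwise by the gene that the deposited annotation assigns to them. This gave 315 of the 175546 peaks in the deposited list.

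The series holds 1 library of RNA immunoprecipitated with CRTC2 (RIP) and 1 input library, both from HCCLM3, an established human hepatocellular carcinoma line of wild-type genotype with no treatment named. The submitters' stated purpose was to find CRTC2 target transcripts, in a study of joint condensates of CRTC2 with YTHDF2, a reader of N6-methyladenosine in mRNA. No control-antibody precipitation was analysed here, so RNA bound to CRTC2 and RNA carried over nonspecifically cannot be told apart. With 1 library per group nothing below has a replicate or a test. The fold of a peak is the authors' ratio of RIP over local control at the summit, read here as RIP over input, and every listed peak passed a p of about 0.05, so a fold above 1 is fixed by the list. RIP fragments and input level at a summit were both solved from the authors' fold and p. The input level is the authors' local control and need not count input reads at the summit itself. Brackets after a fold hold its 95% interval by the exact Poisson method, with the input level held fixed, and cover counting error only. Over the list a summit held a median of 2 RIP fragments. Of the liver genes ALB, AFP, APOA1, HNF4A, KRT8 and KRT18, all 6 had a listed peak. Of the blood, T cell, fibroblast and endothelial genes PTPRC, CD3E, COL1A1 and PECAM1, only PECAM1 had any, with 17 peaks of which 2 were at q of at most 0.05. A peak is not an expression level, and neither is its fold.

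All 10 subunit transcripts carried exon peaks, though SMARCB1 had only 3, each on 1 or 2 fragments. Exons held the largest share of the peaks, 162 of 315 (51.4%, exact Clopper-Pearson 95% interval 45.8 to 57.1). In the rest of the list exons held 30.3%. Here and below, such intervals of shares treat peaks as independent, though many share a gene and all come from 1 RIP and 1 input library. The rule leaves most 3′ UTR peaks under other genes, which raises the members' exon share. Introns held 120, promoters (within 3000 bp of a start site) 29, 5′ UTRs 3 and the 3′ UTR class 1. The median fold was 1.92 over the members' peaks, against 1.89 over the rest of the list. In exons it was 2.20 for the members, against 1.94 in the rest of the list. Summed over exon summits, RIP fragments were 2.58 times the input level in the members (2.43 to 2.73), against 2.61 times in the rest of the list, so the sums showed no excess. Exon summits of the members held a median of 6 RIP fragments, against 4 for all exon peaks of the list, and 112 of the 162 rested on at least 5 fragments.

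**Figure D1:**
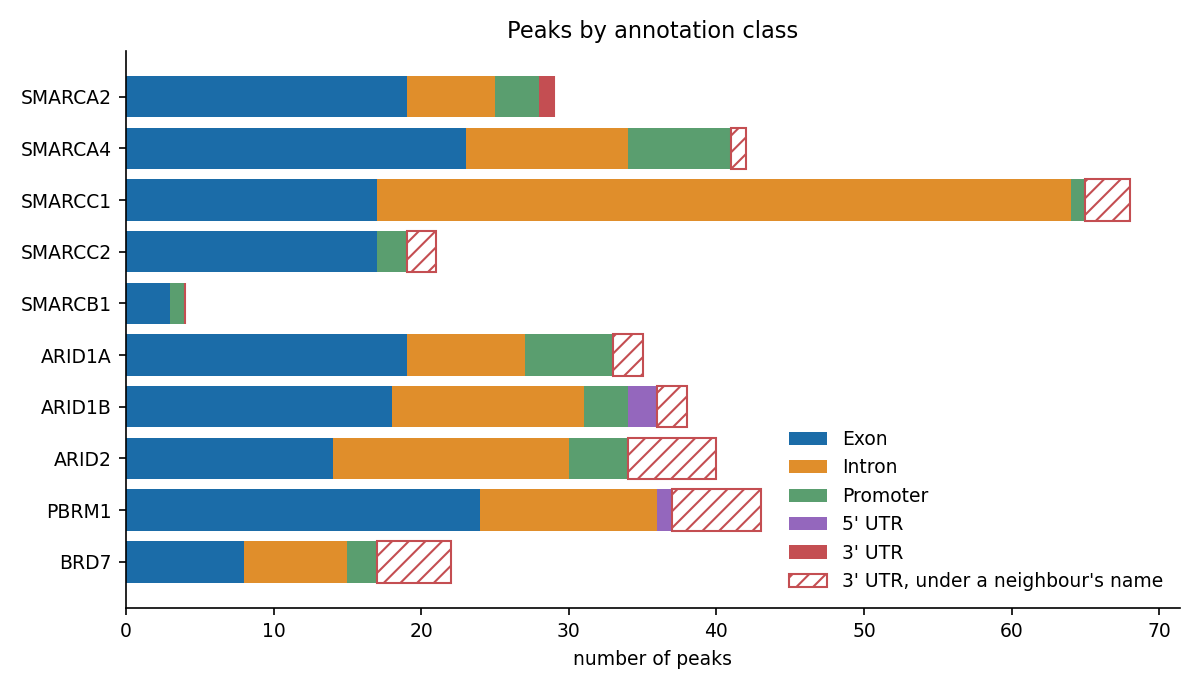
Number of peaks (horizontal axis) by annotation class for each of the 10 genes. Hatched bars add 3′ UTR peaks whose summit lies within the gene but which the annotation assigns to another gene. SMARCC1 stands apart by its 47 intron peaks, and SMARCC2 and SMARCB1 have none in introns.

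Of the 315 peaks 4 passed the authors' q at 0.05 (1.27%, 0.347 to 3.22), against 1.63% of all peaks in the list. These 4 peaks lay in ARID1B, SMARCC1, PBRM1 and ARID2. Of all genes with a peak 11.3% hold one at this q, and of the 2888 genes with 17 to 65 peaks, a range that covers 9 of the 10 members, 32.4% do. The members' 4 of 10 is therefore near the share among genes with as many peaks. Among exon peaks alone, 2 of 162 reached this q (1.23%, 0.150 to 4.39), against 2.98% of all exon peaks, a difference within the counting interval. Of the 4 peaks, the 2 in exons were narrow and the other 2 were wider than 10 kb, so that with peaks of at most 1 kb the count of members fell to 2. The lowest −log10 q among the 4 was 2.37, and the highest among the other member peaks was 1.23, at exon 10 of PBRM1 (3.71-fold on 3 fragments).

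**Figure D2:**
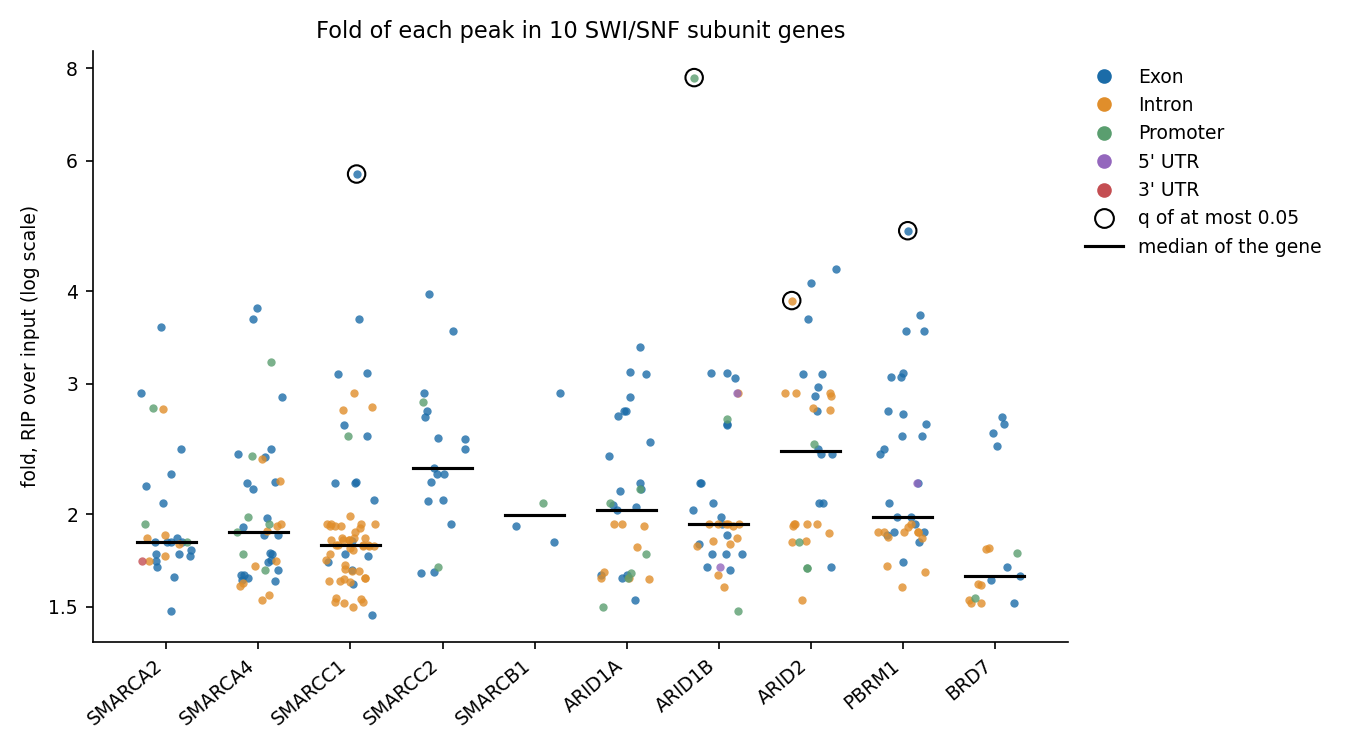
Fold of each of the 315 peaks (vertical axis, log scale), 1 point per peak, coloured by annotation class with horizontal jitter. Black bars mark each gene's median and rings mark the 4 peaks at q of at most 0.05, which reach 7.77 in ARID1B, 5.76 in SMARCC1, 4.83 in PBRM1 and 3.88 in ARID2.

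By the median, promoter-class peaks were no higher than the list at large. The 29 promoter-class peaks lay in 9 members, all but PBRM1, and had a median fold of 1.89. The rest of the list, over all classes, had 1.89. The highest of the 29 was a 7.77-fold ARID1B peak of 128298 bp, described below. Of the 29, 25 were at most 1 kb wide, with folds up to 3.21, in SMARCA4 (chr19:10986211-10986485). Among the 7 members matched to a RefSeq start-site window, narrow peaks had their summit within the first 30 bases after the start in ARID1B, SMARCA2 and SMARCA4. Their sequences are shown because these peaks lie at annotated start sites. Only the ARID1B peak covers its start site, and the other peaks begin a few bases after theirs. Whether the fragments come from transcripts that begin there was not tested. Each line gives 50 bases before the start site and the first 30 of the transcript, on the plus strand of GRCh38.p14 from RefSeq, with the bases covered by the peak in capitals.
ARID1B, chr6:156777328-156777407: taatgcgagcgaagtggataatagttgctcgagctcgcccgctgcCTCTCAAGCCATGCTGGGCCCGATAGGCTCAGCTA
SMARCA2, chr9:2158414-2158493: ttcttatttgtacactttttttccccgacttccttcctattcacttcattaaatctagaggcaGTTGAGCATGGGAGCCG
SMARCA4, chr19:10960980-10961059: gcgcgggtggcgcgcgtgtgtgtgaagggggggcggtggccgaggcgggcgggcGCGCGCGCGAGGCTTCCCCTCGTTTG

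The SMARCA4 peak (chr19:10961034-10961080) had 9 RIP fragments over an input level of 3.17 and a fold of 2.40 (1.23 to 4.34). The ARID1B peak (chr6:156777373-156777416) had 2.69-fold (1.11 to 7.37) on 2 fragments. The SMARCA2 peak (chr9:2158477-2158633), at a start site inside the gene, had 1.84-fold (0.760 to 5.03) on 2 fragments. Each interval is wide, and that of SMARCA2 includes 1. Longer SMARCA2 transcripts also run through its site. The RefSeq windows, of 300 bases each (250 before the start site and 50 from it on), numbered 13 for the 7 matched members. The CREB response element TGACGTCA, searched on both strands, was in 0 of the 13, and in 1.85% of all windows. The shorter site TGACG, on both strands and contained in the full element, was in 2 of the 13 (PBRM1 and SMARCB1) and in 24.6% of all windows. GGACT, a form of the N6-methyladenosine consensus, searched on the transcript's strand, was in 3 of the 13 (PBRM1, SMARCA2 and SMARCA4) and in 25.3% of all windows. Most of each window lies before its start site, so a match need not lie in the transcript. These matches describe the letters only.

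The ATPase genes had no peak at q of at most 0.05. SMARCA4 carried 41 peaks with a median fold of 1.89, and SMARCA2 carried 29 with a median of 1.84. The highest SMARCA4 peak lay in exon 19 of 36 (hg38 chr19:11019608-11019728) at 3.79-fold (2.0 to 6.68) on 10 RIP fragments against an input level of 1.90. Exon 25 followed at 3.67-fold on 5 fragments. The highest SMARCA2 peak lay in exon 5 of 33 (chr9:2047335-2047514) at 3.58-fold (1.45 to 8.74), on 3 fragments. The intervals of these folds overlapped, while the paralogs differed in depth. Exon summits of SMARCA4 held a median of 8 RIP fragments over a median input level of 3.80, and those of SMARCA2 a median of 2 over 0.634. A fold under 2 was the median in exons for both, at 1.87 in SMARCA4 and 1.84 in SMARCA2. Exon-class peaks were found in 22 of 36 SMARCA4 exons and 18 of 33 SMARCA2 exons. Promoter-class and UTR peaks inside the genes were not counted.

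Among the core subunits, SMARCC1 held the highest exon fold of all members. Its peak in exon 2 of 28 (chr3:47772792-47772917, 126 bp) had 6 RIP fragments over an input level of 0.216, a fold of 5.76 (2.63 to 11.6) with −log10 q of 3.09. The next exons with a peak were lower, with 3.09 in exon 3, 3.10 in exon 4 and 2.55 in exon 5, and exon 16 reached 3.67 on 5 fragments. Exons 9 and 10 had the deepest of the members' exon summits together with exon 22, with 19, 22 and 21 RIP fragments, and folds of 1.46, 1.76 and 1.61. The deepest SMARCC1 summits therefore had low folds. The input level at exon 2 was the lowest of the 17 exon summits in this gene, and the next was 0.634, at exon 16. Whether any input read lay at the exon 2 summit was not tested, and its fold rests on that low level.

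SMARCC1 also had 47 intron peaks, against at most 16 in any other member. Of these 47 peaks 43 rested on 1 RIP fragment and 35 were 31 bp wide, the smallest width in the list. Their highest fragment count was 2. Over all members, 104 of 120 intron peaks (86.7%) rested on 1 fragment, against 85.8% of intron peaks in the rest of the list. The intron peaks of SMARCC1 thus add number and little depth.

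A peak inside SMARCC1 was carried under another gene's name. The annotation places chr3:47661270-47661351 in the promoter class of the small nucleolar RNA gene SNORD146, with 24 RIP fragments over an input level of 6.34. Its fold was 3.41 (2.23 to 5.0) and its −log10 q 2.56, on more fragments than any of the 315 member peaks. It was singled out after its values were seen, and whether its reads come from SMARCC1 was not tested.

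SMARCC2 had 19 peaks, of which 17 were exonic and none intronic. Its median fold of 2.31 and median summit of 8 fragments were above the median of all member peaks, at 1.92 and 2 fragments. The highest lay in exon 14 of 30 (chr12:56178439-56178504) at 3.97-fold (1.96 to 7.39) on 8 fragments, and the next in exon 27 at 3.53-fold on 7. The counting interval of the fold lay above 1 for 15 of the 19 peaks (78.9%, 54.4 to 93.9), against 34.9% over all member peaks and 26.3% in the rest of the list. No SMARCC2 peak rested on 1 fragment, where the interval of every member peak included 1, against 46.2% of peaks in the rest of the list. ARID2 had an interval above 1 in 18 of 34 peaks (52.9%), and SMARCC1, the paralog of SMARCC2, in 16 of 65. These shares mix classes, since SMARCC1 had 47 intron peaks, 43 of them on 1 fragment, and SMARCC2 had none. The share was not computed for exon peaks alone, where the median fold was 2.31 in SMARCC2 and 2.21 in SMARCC1. SMARCB1, the core subunit lost in rhabdoid tumours, had 4 peaks, the fewest of the members. All 4 lay on the alternative contig chr22_KI270879v1_alt and none on the primary chromosome, and 2 of them were wider than 1 kb. Its highest fold was 2.91 (1.21 to 7.99), on 2 fragments, in a peak of 23411 bp annotated to exon 5 of 9, and its promoter peak had 2.07-fold on 5 fragments.

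The BAF-defining paralogs ARID1A and ARID1B, large subunits that help target the complex, had 33 and 36 peaks. ARID1A had exon peaks in 16 of its 20 exons, the largest share among the members (80%). Its highest lay in exon 19 (chr1:26775596-26775731) at 3.36-fold (1.90 to 5.57), on 13 RIP fragments over an input level of 3.17, and the last exon reached 3.11 on 10 fragments. In exons 2 and 3 the summits held 18 fragments each with folds of 2.06 and 1.53. No ARID1A peak reached q of 0.05. ARID1A's highest fold was 2.16 when every peak was counted for its nearest start site, since all its exon peaks from exon 5 on stood under PIGV.

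ARID1B held the highest fold of the members. Its peak spanned 128298 bp (chr6:156953447-157081744) in the promoter class, with 7 RIP fragments at the summit over an input level of 0.0298, the floor that is the lowest in the list. The fold was 7.77 (3.70 to 15) and the −log10 q 10.4, and both rest on those 7 fragments. The summit lay 448 bp after the start of an ARID1B transcript that begins inside the gene. Among ARID1B peaks of at most 1 kb the highest fold was 3.10, shared by exon 6 (chr6:156935497-156935601) and exon 10 (chr6:157148638-157148978) on 8 fragments each. Exon peaks were found in 16 of 21 exons.

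Exon peaks of the PBAF-defining genes had a median fold of 2.51 over 46 peaks, with a median input level of 1.31. The median was 2.15 in the BAF-defining genes at an input level of 2.53, 2.21 in the core subunits at 3.17, and 1.84 in the ATPases at 1.90. Within the PBAF group the genes differed, with 2.82 in ARID2 and 2.5 in PBRM1, against 2.08 in BRD7. The median input level at these summits was 1.56 in ARID2 and 1.27 in PBRM1, against 4.75 in BRD7. The fold that a summit needs to enter the list varies with its input level, and not in one direction. These medians therefore do not rank the groups, and the part of input level in them was not tested.

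PBRM1, which carries a row of acetyl-lysine-binding bromodomains, had 24 exon peaks, the most of the members, against 23 in SMARCA4. Of PBRM1's 24, those 2909 and 8872 bp wide rested on 1 fragment each. The highest lay in exon 29 of 32 (chr3:52561779-52561934) at 4.83-fold (2.73 to 8.01) with −log10 q of 2.58. The deposited annotation lists this peak under UQCC5. Counted by nearest start site, PBRM1's highest fold was 3.71 and 3 members had a peak at q of at most 0.05. It held 13 RIP fragments over an input level of 1.90, the deepest of the 4 peaks at q of at most 0.05. Exons 10, 18 and 21 had 3.71, 3.53 and 3.53-fold on 3, 7 and 7 fragments. ARID2, the AT-rich-interaction subunit of PBAF, had the highest median fold of the members at 2.43. Its peaks in exon 17 of 21 (chr12:45891793-45891936) and exon 15 (chr12:45852590-45852915) reached 4.28-fold (1.96 to 8.61) and 4.10-fold (1.88 to 8.24), on 6 fragments each, without reaching q of 0.05. The ARID2 peak that did reach it was 22755 bp wide in intron 3 (chr12:45788175-45810929), with 3.88-fold (1.57 to 9.48) on 3 fragments at the lowest input level. BRD7, the bromodomain subunit, had a median fold of 1.65 and its highest peak at 2.71-fold (1.18 to 5.71) on 5 fragments in exon 16 of 17 (chr16:50319871-50319920). Its deepest summit, with 23 fragments at 1.54-fold, lay in a promoter-class peak of 226 bp that begins 56 bp from its start site.

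**Figure D3:**
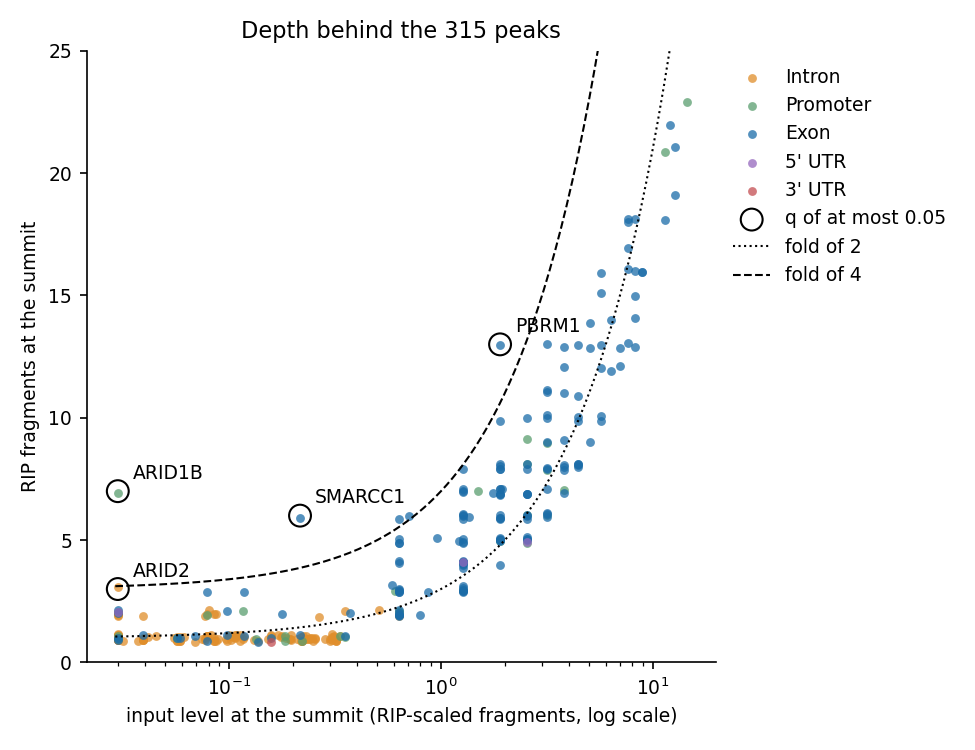
RIP fragments at the summit (vertical axis, with slight jitter) against the input level (horizontal axis, log scale, in fragments scaled to the RIP library) for the 315 peaks, coloured by class. Dotted and dashed lines mark folds of 2 and 4, and rings mark the 4 peaks at q of at most 0.05, of which ARID1B and ARID2 sit at the lowest input level of 0.0298.

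Ordered by highest peak, the members ran from ARID1B through SMARCC1, PBRM1, ARID2, SMARCC2, SMARCA4, SMARCA2, ARID1A and SMARCB1 to BRD7. The order depended on the peaks counted, at both ends. With peaks of at most 1 kb, ARID1B's highest fold was 3.10, below ARID1A's 3.36, and SMARCC1 came first at 5.76. SMARCB1's highest fold fell to 2.07, below BRD7, by nearest start site, with peaks of at most 1 kb and with at least 5 fragments. SMARCA2 at 2.26 with at least 5 fragments, and ARID1A at 2.16 by nearest start site, also fell below BRD7. In the order by all peaks, the intervals overlapped in all 45 pairs of members, which is not a test of a difference. Each fold is the highest of 4 to 65 peaks of a gene, which the intervals do not take into account. The median over members of the highest fold was 3.88, against 2.83 over all genes with a peak and 3.67 over genes with 17 to 65 peaks. A fold of at least 4 was reached in ARID1B, SMARCC1, PBRM1 and ARID2, or 4 of 10 members, against 11.3% of all genes and 35.4% of genes with 17 to 65 peaks.

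Exon peaks were spread along the transcripts. In the transcript used most by the annotation for each gene, 150 of 247 exons (60.7%) held an exon-class peak. None of the 10 transcripts had an exon-class peak in exon 1, where the annotation puts peaks in the promoter class. The last exon held an exon-class peak in SMARCA2, ARID1A and ARID1B, and peaks of the 3′ UTR class were not counted here.

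**Figure D4:**
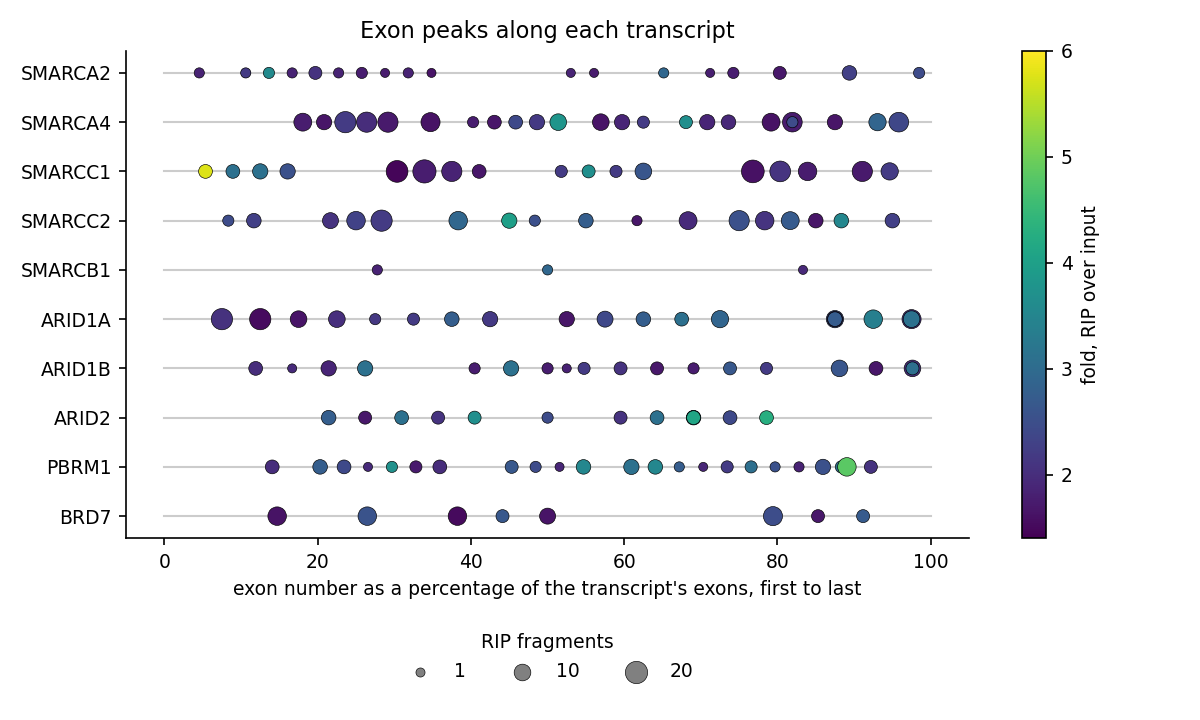
Exon peaks of each gene placed by exon number as a percentage of the transcript's exons (horizontal axis, first to last). Colour gives the fold and point size the RIP fragments at the summit; the highest folds are exon 2 of SMARCC1 at 5.76 and exon 29 of PBRM1 at 4.83.

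The 3′ UTRs of the members were largely listed under neighbouring genes. The annotation assigns each peak by the closest start site, and by that 124 of the 315 member peaks (39.4%) carried another gene's identifier. The 3′ UTR class has no transcript name to correct this. Within the RefSeq spans of the members, 27 further 3′ UTR peaks in 8 genes stood under names such as UQCC5, SCAF11 and CSPG5. PBRM1 and ARID2 had 6 each, BRD7 5, SMARCC1 3, ARID1A, ARID1B and SMARCC2 2 each, and SMARCA4 1. Their median fold was 2.21 on a median of 5 fragments, and none reached q of 0.05. The highest were 3.92 in PBRM1 (chr3:52546903-52546964), 3.77 in SMARCC1 (chr3:47588131-47588287), 3.32 in ARID2 (chr12:45905038-45905142) and 3.25 in BRD7 (chr16:50316762-50316853). Overlap with other transcripts was not tested. With every peak whose summit lies in a member's span, the members had 336 peaks.

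Wide peaks were thin. Of the member peaks 45 were wider than 1 kb and 22 wider than 10 kb. Of these 22, 19 had their summit at the lowest input level, against none of the 270 peaks of at most 1 kb. At that level a position with 0 RIP fragments already has a p of 0.0294, below the list's limit. The widest, 788821 bp, was assigned to SMARCA2 with a summit of 1 fragment upstream of the gene.

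**Figure D5:**
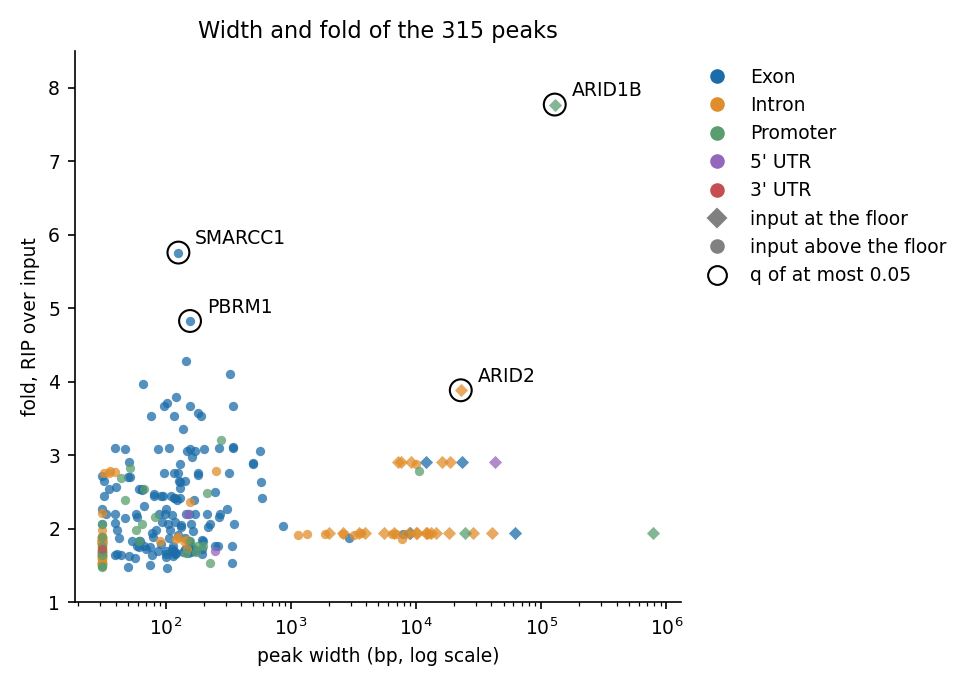
Width in bp (horizontal axis, log scale) and fold (vertical axis) of the 315 peaks, with diamonds for summits at the lowest input level and circles for the others. Beyond 1 kb every summit rests on 1 or 2 fragments, except those of ARID2 at 3.88 and ARID1B at 7.77.

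The other subunits of the complexes had fewer peaks. Of 19 genes 17 had a peak, all but ACTL6B and DPF3, and in 3 genes a peak passed q of 0.05, against 11.3% of all genes. BICRA, a subunit of the noncanonical GBAF form, was highest at 4.69-fold (2.15 to 9.43) on 6 fragments in exon 6 of 15. BRD9, the bromodomain subunit of the same form, reached 4.49-fold (1.88 to 10.1) on 4 fragments, and BICRAL 3.88-fold on 3, in a peak of 4304 bp. BCL7A stood at 4.38-fold on 7 fragments, without that q. The median number of peaks was 7 in these genes, against 33.5 in the 10 members.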

How the data were processed

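Per the labels' protocols, a Magna RIP kit gave both RNAs and a stranded, low-input SMARTer total RNA kit gave both libraries. HISAT2 and MACS2 with hg38 were used, per the submitters' processing notes; their versions were not given in the sources used here. In the deposited table the authors give a fold (a linear ratio) and a score per peak, per the file headers. The deposited −log10 p and −log10 q stand in columns with spoiled headers and were identified by place and values. The score, in all peaks the whole part of 10 times −log10 p, was left aside.

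RIP fragments k and input level were recovered from the deposited fold, (k + 1)/(level + 1), and a Poisson tail p; a whole number met both within 0.001 for 100% of peaks, and a single one for 305 of 315 member peaks. The recovery was tested only on data simulated from these same formulas, at input levels below those of the deepest member summits. That test cannot show that the authors used these formulas. Start-site sequences and spans came from RefSeq (GRCh38.p14). SciPy 1.17.1 and pandas 2.3.3 were used. The rule for named genes took all members, other subunits at q of at most 0.05, the 3 with the highest fold and those without a peak, and other remodeller ATPases at that q. Members and lists were chosen with earlier results of these data known. No genome sequence was used, so exon peak sequences are not shown.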

Additional observations from a re-analysis of the deposited data

How the results depend on the processing

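The 315 member peaks were 191 when every peak was counted for its nearest start site, 166 with exon and UTR peaks, 127 with at least 5 fragments, 172 with the summit in the assigned transcript, 5 where the fold had to reach 4 and 1 where −log10 q had to reach 5. In the last 2 of these settings the median fold was 4.83 and 7.77, the share at q of at most 0.05 was 60% and 100%, and the exon share 80% and 0%, as the limits select. The median fold of 1.92 was 2.20 in exon and UTR peaks, 2.21 with at least 5 fragments and 1.86 up to 1 kb. Members at q of at most 0.05 numbered 3 by nearest start site, 2 in exon and UTR peaks, 2 up to 1 kb and 1 at −log10 q of at least 5. The exon share of 51.4% was 45.5% by nearest start site, 57.8% up to 1 kb and 88.2% with at least 5 fragments. Primary chromosomes alone left 311 peaks, none of them in SMARCB1. Counting by the summit in a member's span, chosen after seeing the data, gave 336 peaks. Of 30 recomputed highest folds 21 were unchanged and 9 lower. ARID1B's was 3.10 up to 1 kb, SMARCA2's 2.26 with at least 5 fragments, ARID1A's 2.16 and PBRM1's 3.71 by nearest start site, and SMARCB1's 2.07 in each of these settings. No paired analysis was possible because each group holds 1 library. Depth limits many peaks: 127 of 315 rested on 1 fragment.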

Other observations

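The ATPases of other remodeller families were set beside the members. All 17 had a peak, with a median of 36 peaks per gene, and in 7 genes a peak passed q of 0.05, against 11.3% of all genes and 32.4% of genes with 17 to 65 peaks. CHD6 and CHD7, of the chromodomain family, reached 5.37-fold (2.35 to 11.3) on 5 fragments each. CHD2 reached 4.90-fold on 7 fragments and had 3 peaks at this q, and CHD4, the ATPase of the NuRD complex, reached 4.85-fold on 10. EP400 stood at 4.63-fold on 5 fragments, and SMARCAD1 at 4.14 on 11. The highest peak assigned to HELLS, 4.6-fold on 7 fragments, was classed as distal intergenic and so lay outside the gene. The median of their highest folds was 4.25, against 3.88 in the SWI/SNF members, and the difference was not tested.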
